A study of Mus musculus with 3 samples.

Results

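Older mouse oocytes matured with a stem cell secretome (aged-sec) were compared with young oocytes matured without it, to describe which mRNAs still stood above young and by how much. The members were all listed transcripts with at least 10 TPM in either of these libraries. They filled 1999 of the 9126 rows of the deposited table, or 1974 transcripts once rows repeating an accession with the same values were counted once. After the listed variants of a gene were summed under its symbol, 1744 of 6104 symbols had at least 10 TPM in either library. TPM is a transcript's abundance per length, scaled to 1000000 per library.

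Each library pooled 20 oocytes at metaphase II from 4 mice, and each group had 1 library. All groups came from ICR mice, a strain given under the cell line label, and no age in weeks or months is stated. Oocytes collected at the germinal vesicle stage, after 46 to 48 h, were held in M16 medium for 16 to 18 h, with or without the secretome. The protocol gives it as hUC-MSC-sec, mixed 1 to 1 with the medium, that is, factors released by mesenchymal stem cells of the human umbilical cord. The treatment label names the secretome on every sample, so the groups were read from the titles Young, Aged and Aged_sec, with secretome for the last. With 1 library per group there is no replicate error, no test and no p-value, and every difference below lies between libraries. A stimulation before collection and the composition of the secretome are not described further in the labels.

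A fully grown mouse oocyte stores maternal mRNA and makes little new RNA. During meiotic maturation many stored mRNAs lose their poly(A) tail and are cleared, while others are recruited for translation. The proteins made from them drive the spindle, hold the egg at metaphase II and start the embryo's genome after fertilization. Because the library method starts from poly(A) tails in the usual SMART-Seq2 protocol, a level here can reflect both the amount of an mRNA and its tail, and these cannot be told apart. TPM gives shares of a library, so RNA per oocyte was not measured, and in pooled cells fewer cells of a type and less RNA per cell cannot be told apart.

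The table limits what can be seen. In every listed row aged TPM was at least 1.2 times young TPM and no value was 0, so low young values are favoured and aged-sec over young is drawn above 1 even without an effect. Genes outside the table were not analysed here. Listed TPM summed to 229243 in young (22.9% of the library), 324814 in aged (32.5%) and 321460 with secretome (32.1%), and read depth is unknown. Of 20 oocyte markers 5 were listed, with a summed level of 629 TPM in young, 887 in aged and 851 with secretome, of which Bmp15, an oocyte growth factor, made up 585, 817 and 799 TPM. Of 20 cumulus and granulosa markers 5 were listed, at a sum of 3.34, 6.69 and 4.93 TPM, and among these Fshr stood at 0.03, 0.55 and 0.22 TPM. The theca and stroma markers (4 of 11 listed) summed to 2.38, 4.42 and 3.38 TPM, with Col1a1 at 0.01, 0.04 and 0.01 TPM. The endothelial markers (2 of 5) summed to 2.52, 5.42 and 3.53 TPM and the surface epithelial markers (2 of 5) to 1.63, 2.68 and 1.35 TPM. Csf1r, the 1 listed of 11 blood and immune markers, stood at 0.01, 0.02 and 0.01 TPM. The oocyte sum thus rested mostly on Bmp15. Of the other listed oocyte markers, Kit stood at 19.01, 23.16 and 26.85 TPM and Zp2 at 20.5, 39.3 and 20.5 TPM. Ddx4 stood at 0.34, 0.69 and 0.17 TPM and Gdf9 at 4.36, 6.81 and 4.46 TPM. The highest listed markers of other cell types were below Kit, Zp2 and Gdf9 but above Ddx4 in each library. Dcn stood at 2.22, 4.03 and 3.08 TPM, Nr5a2 at 2.06, 3.03 and 2.14 TPM, and Pecam1 at 1.77, 4.31 and 2.59 TPM. The part of other cell types in the results was not tested.

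Most members stood above young in aged-sec oocytes, by a modest amount. Of 1974 transcripts, 1725 (87.4%) were above young and 248 below, with a median ratio of 1.38. A ratio of at least 2, called higher here, was met by 367 transcripts (18.6%), and a ratio of at most 0.5, called lower, by 10 (0.507%). After summing per symbol, 276 of 1744 symbols were higher (15.8%) and 6 were lower (0.344%), at a median of 1.37 and quartiles of 1.14 and 1.70. In aged oocytes 296 of the same symbols were at least 2-fold above young (17.0%), at a median of 1.5. Both comparisons use the young library, so their values are given side by side only.

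These counts move with the scale. Multiplying aged-sec so that the median symbol ratio is 1, a shift of 0.45 on the log2 scale, left 67 symbols higher and 11 lower. The higher share of all calls was then 85.9%, against 97.9% as deposited. Giving both libraries the same listed total, a shift of 0.49, left 62 higher and 13 lower, a share of 82.7%. For transcripts the share was 97.3% as deposited, 83.5% at a median of 1 and 80.5% at equal totals. Gene groups below are therefore also read against the all-symbol median of 1.37, and a gene can belong to more than 1 list.

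**Figure D1:**
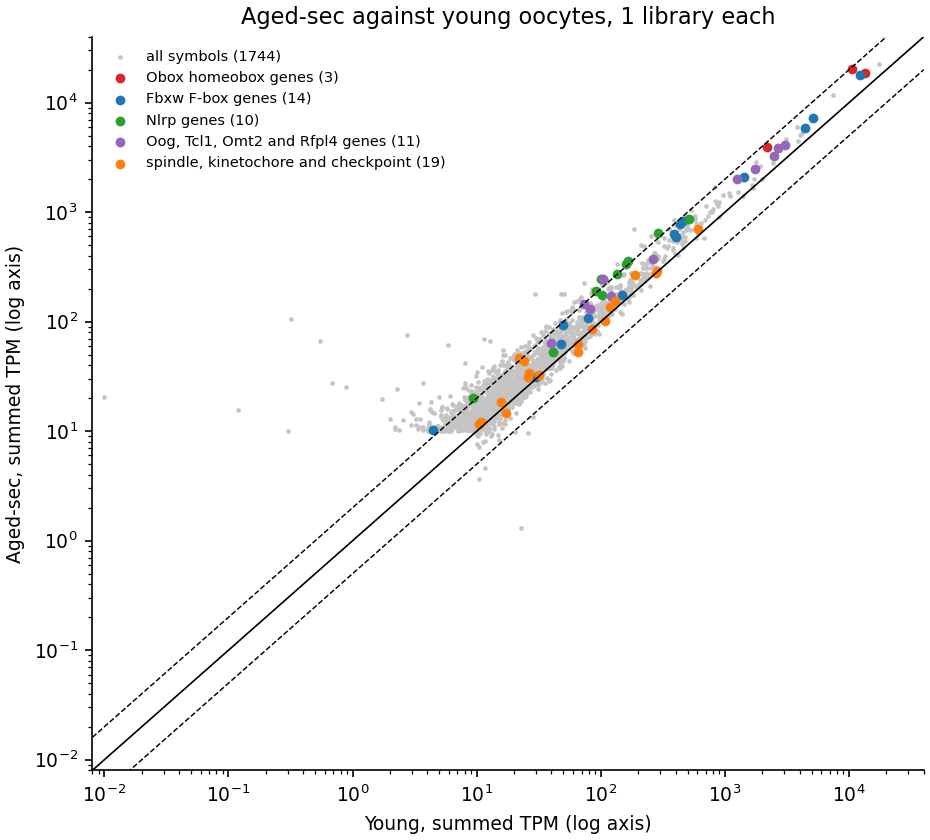
Summed TPM of 1744 symbols in young (x axis, log) and aged-sec oocytes (y axis, log), 1 library each, with 5 gene lists in colour. The solid line marks equal TPM and the dashed lines ratios of 2 and 0.5, and most points, 1545 of 1744, lie above the solid line.

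How a symbol entered mattered for the calls. Of the 1744 symbols, 1430 had at least 10 TPM in young, and 148 of these were higher (10.3%) and 6 lower (0.42%), with a median of 1.31. Another 314 reached 10 TPM in aged-sec only, which makes a ratio above 1 certain, and they held 128 of the higher calls. The same holds below for any member with under 10 TPM in young, and counts of higher symbols per list can include such members. Each count of higher symbols per list is to be read beside the 15.8% higher among all symbols. Just 22 symbols reached 10 TPM in young only. At the threshold, Lsm7 (8.13 TPM in young, 10 in aged-sec), Zc3h12c (5.21 and 10.01 TPM) and Klhdc1 (7.65 and 10.01 TPM) gave the transcripts just inside. Mob1b (7.06 and 9.98 TPM), Brms1l (8.05 and 9.98 TPM) and Fbxo43 (9.97 and 8.98 TPM) gave those just outside.

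The calls also depended on how much of a gene was listed. Among 483 symbols with every annotated mRNA in the table, 55 were higher (11.4%) and 0 lower, at a median of 1.36. Among 1229 symbols with only part of their annotated mRNAs listed, 209 were higher and 6 lower, at a median of 1.37. Every lower symbol was thus a partly listed gene, whose other transcripts were not analysed here. Curated transcripts had a median ratio of 1.33 and predicted ones of 1.55.

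Higher calls were thinner among abundant mRNAs. Below a mean of 30 TPM, 19.1% of 962 symbols were higher, against 9.21% of 76 symbols from 300 to 1000 TPM and 2.78% of 36 symbols above 1000 TPM. The medians of these groups were 1.40, 1.39 and 1.38, while the quartiles were 1.15 and 1.80 in the first and 1.26 and 1.49 in the last. The spread of ratios was thus narrower at high levels around a like median. By mRNA length the medians ran from 1.33 at 2000 to 3000 nt to 1.42 at 5000 nt or more, over 1698 symbols with a length.

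In absolute terms much of the excess lay in a small number of very abundant mRNAs, which also held much of the TPM in young. The 1744 symbols summed to 221718 TPM in young, 311548 in aged and 311237 with secretome, so the net excess over young was 89519 TPM in aged-sec and 89830 TPM in aged. The 10 symbols with the largest differences carried 43.2% of the aged-sec excess and the top 100 carried 75.8%. The 36 symbols with a mean above 1000 TPM held 127858 of the 221718 TPM in young. Their summed TPM in aged-sec was 1.41 times that in young, against 1.40 over all symbols, so their excess was near their share. The largest single difference was that of Obox2, at 9833 TPM, followed by Fbxw28 (5375 TPM), Obox5 (5222 TPM) and Mphosph6 (5047 TPM). Mphosph6, an exosome-associated protein of RNA processing, was the most abundant listed gene, at 17516 TPM in young, 21222 in aged and 22563 with secretome (ratio 1.29). The Obox, Fbxw, Sm and LSm, and Oog, Tcl1, Omt2 and Rfpl4 lists are described first for their large differences, with 35 symbols and 41.5% of the net excess. In that order, their summed TPM in aged-sec was 1.64, 1.43, 1.52 and 1.41 times that in young.

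**Figure D2:**
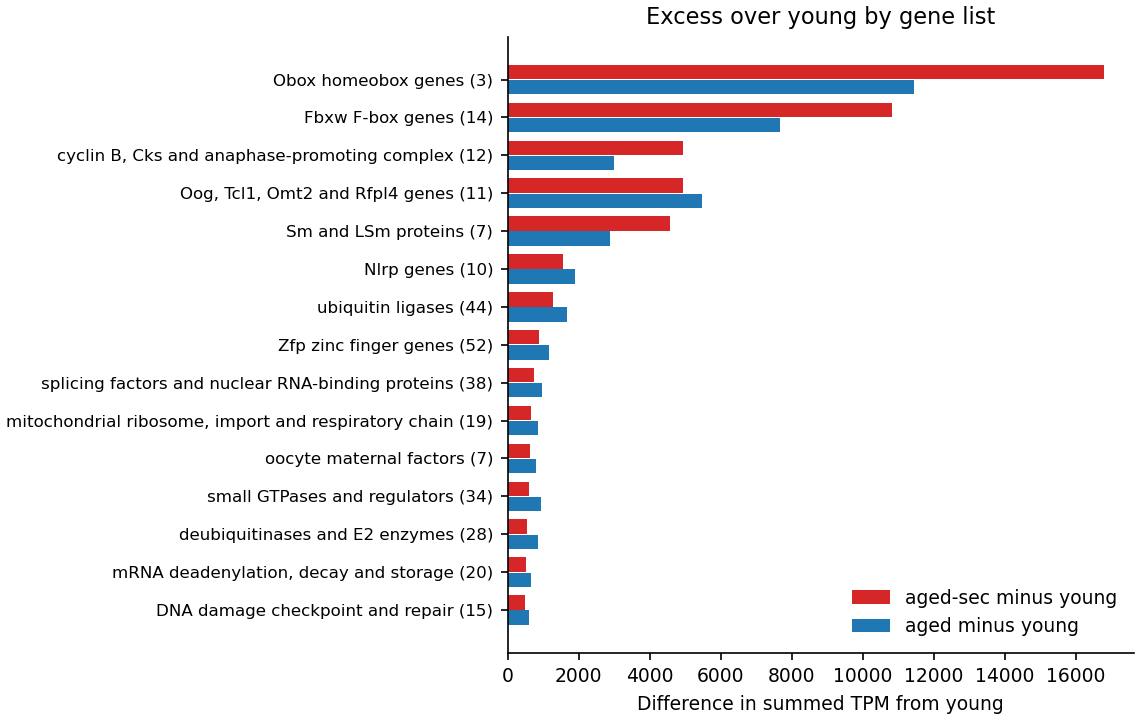
Difference in summed TPM from young, for aged-sec (red bars) and aged oocytes (blue bars), in the gene lists with the largest aged-sec difference (number of symbols in brackets), 1 library each. The Obox bar reaches 16790 TPM in aged-sec against 11450 TPM in aged, while the Nlrp bars stand at 1560 and 1894 TPM.

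The Obox genes encode homeobox proteins made in oocytes, and maternal Obox proteins act in the activation of the embryo's genome. Of 6 Obox symbols annotated by RefSeq, 4 were listed and 3 had at least 10 TPM. Obox2 stood at 10491 TPM in young, 18633 in aged and 20323 with secretome. Triplets of values are always in the order young, aged and aged-sec. Obox5 stood at 13442, 16166 and 18664 TPM, and Obox7 at 2195, 2778 and 3930 TPM. In each of these 3 genes aged-sec was the highest library and young the lowest. The ratios of aged-sec over young were 1.94, 1.39 and 1.79, so 0 of 3 met the 2-fold size. Their median of 1.79 stayed above 1 when aged-sec was scaled to a median ratio of 1 (1.31) or to equal listed totals (1.28). Each of the 3 has a single annotated mRNA, but they belong to 1 gene family, and where their mRNAs are alike reads may have been shared among them, so the single levels are uncertain. Their mRNA sequences were not compared here. Their sum was 26127 TPM in young, 37578 in aged and 42918 with secretome.

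The start regions of these 3 genes are shown because the genes stood above young together and their sequences show how alike they are. Each window runs from 250 bases before to 50 after the annotated start, on the plus strand of RefSeq's GRCm38.p6: Obox2 at chr7:15388601-15388900, Obox5 at chr7:15750120-15750419 and Obox7 at chr7:14659458-14659757. Capitals mark the longest run of bases that all 3 share.
Obox2: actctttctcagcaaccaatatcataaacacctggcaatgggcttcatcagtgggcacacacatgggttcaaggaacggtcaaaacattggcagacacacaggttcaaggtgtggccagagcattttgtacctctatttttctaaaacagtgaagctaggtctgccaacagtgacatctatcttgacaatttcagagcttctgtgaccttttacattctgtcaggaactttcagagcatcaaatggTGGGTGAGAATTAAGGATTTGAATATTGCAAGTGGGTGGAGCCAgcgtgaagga
Obox5: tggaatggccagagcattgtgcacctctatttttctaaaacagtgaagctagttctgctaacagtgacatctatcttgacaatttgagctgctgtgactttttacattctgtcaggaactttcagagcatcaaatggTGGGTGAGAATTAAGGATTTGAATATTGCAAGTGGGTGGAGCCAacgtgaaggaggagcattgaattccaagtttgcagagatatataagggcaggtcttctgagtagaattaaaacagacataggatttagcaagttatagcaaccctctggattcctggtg
Obox7: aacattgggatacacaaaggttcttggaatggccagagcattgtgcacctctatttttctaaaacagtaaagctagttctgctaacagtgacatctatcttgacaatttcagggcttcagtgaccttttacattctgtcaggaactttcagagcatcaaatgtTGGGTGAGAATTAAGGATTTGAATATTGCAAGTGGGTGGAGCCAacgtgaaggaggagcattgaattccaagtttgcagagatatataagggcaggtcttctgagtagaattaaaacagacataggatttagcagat
The shared run, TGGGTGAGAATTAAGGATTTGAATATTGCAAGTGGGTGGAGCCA, is 44 bases long and starts 4 bases before the annotated start in Obox2, 113 before it in Obox5 and 87 before it in Obox7. On either strand it was found in 4 of 32851 windows of the RefSeq table (0.0122%), those of Obox1, Obox2, Obox5 and Obox7. The windows were aligned with gaps allowed, and identity was counted over the paired bases only, outside gaps. Obox5 and Obox7 were 97.4% identical over 274 such bases, Obox2 and Obox5 94.8% over 191, and Obox2 and Obox7 92.6% over 217. No binding or methylation was measured here, and the shared run is a description of the sequence.

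The Fbxw genes of the oocyte cluster encode F-box proteins with WD repeats, a class that picks substrates for SCF ubiquitin ligases. Of 24 Fbxw symbols 16 were listed and 14 had at least 10 TPM, and all 14 stood above young as deposited, with a median of 1.44. The median was 1.05 at a median ratio of 1 over all symbols and 1.03 at equal listed totals, so the excess of the list was close to that of all members. Fbxw28 stood at 12371 TPM in young, 15706 in aged and 17746 with secretome (ratio 1.43). Fbxw14 stood at 5096, 6427 and 7215 TPM, and Fbxw24 at 4435, 5859 and 5824 TPM. Aged-sec was above aged in 8 of the 14 genes, including Fbxw28 and Fbxw14 but not Fbxw24. Fbxw16 (463, 768 and 835 TPM) and Fbxw19 (435, 645 and 783 TPM) had larger ratios, of 1.8 each. The member past 2-fold was the scarce Fbxw7, the adaptor that marks cyclin E and Myc for destruction, at 4.48, 5.79 and 10.2 TPM (ratio 2.28). Fbxw7 reached 10 TPM in aged-sec only, so a ratio above 1 was certain. The list summed to 25377 TPM in young, 33047 in aged and 36201 with secretome, and its members are related copies for which read sharing is possible.

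The Sm proteins form the ring that holds the small nuclear RNAs of the spliceosome, and LSm proteins form like rings in splicing and mRNA decay. Of 22 such symbols 10 were listed and 7 had at least 10 TPM, all above young as deposited, with a median of 1.49 (1.09 at a median ratio of 1 and 1.07 at equal totals). Snrpg stood at 3802 TPM in young, 4931 in aged and 6013 with secretome (ratio 1.58). Snrpe stood at 3083, 4309 and 4615 TPM, and Snrpf at 572, 775 and 918 TPM (ratio 1.60). These core Sm mRNAs were highest in aged-sec, and so was Snrpd1, at 1075, 1296 and 1486 TPM. Lsm7, a ring subunit of the decay and splicing complexes, stood at 55.3, 88.6 and 61.9 TPM, nearer to young than to aged. None of the 7 met the 2-fold size.

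Genes of the Oog, Tcl1, Omt2 and Rfpl4 group are expressed in oocytes: Oog genes encode oogenesins with leucine-rich repeats, Tcl1 genes encode partners of the kinase Akt, and Rfpl4 encodes a RING finger protein. Of 14 symbols 11 were listed, all 11 had at least 10 TPM and all stood above young as deposited. Their median was 1.44, against 1.05 at a median ratio of 1 and 1.02 at equal totals. Rfpl4 stood at 3024 TPM in young, 4485 in aged and 4098 with secretome (ratio 1.36), and Oog3 at 2691, 4011 and 3866 TPM (1.44). Tcl1b3 stood at 2501, 3480 and 3249 TPM and Omt2a at 1737, 2257 and 2468 TPM. Aged-sec was above aged in 4 of the 11, so most of these mRNAs lay between young and aged. Their median of aged-sec over aged was 0.96, against 0.89 over all symbols. Aged values were selected to be high, so aged-sec below aged is favoured by the table. Oog2 was the member past 2-fold, at 105, 253 and 245 TPM (ratio 2.34). With curated transcripts alone its ratio was 11.8, and reads may be divided between its variants and copies.

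The Nlrp genes had the largest median ratio among the lists with more than 4 members. They encode NLR-type proteins made in oocytes, some of which belong to the complex under the egg's membrane that early embryos need. Of 18 symbols 11 were listed and 10 had at least 10 TPM, of which 7 were higher, beside 15.8% of all symbols. Under either scaling 0 of the 10 were higher, and with curated accessions alone 4 of 9. Their median was 2.11 in aged-sec and 2.13 in aged, and it stayed above 1 under both scalings (1.54 at a median ratio of 1 and 1.5 at equal totals, the order kept below). Nlrp14 stood at 516 TPM in young, 931 in aged and 867 with secretome (ratio 1.68), and Nlrp4f at 288, 742 and 650 TPM (2.25). Nlrp4a stood at 165, 393 and 359 TPM (2.17), Nlrp4g at 161, 420 and 339 TPM (2.11), and Nlrp9b at 101, 274 and 243 TPM (2.40). Aged-sec lay a little below aged in these 5 genes and in 8 of the 10. Nlrp4b (134, 271 and 273 TPM) and Nlrp9c (9.36, 19.2 and 20.2 TPM) were the exceptions. The list's median of aged-sec over aged was 0.92, against 0.89 over all symbols, and aged-sec below aged is favoured by the table. Nlrp2, needed from the mother for normal embryos, had the smallest ratio, at 41.3, 57.3 and 52.6 TPM (1.27). With curated transcripts alone the list's median was 1.70. Nlrp4 and Nlrp9 genes are related, and reads may be shared between them, so the levels of single genes are uncertain.

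**Figure D3:**
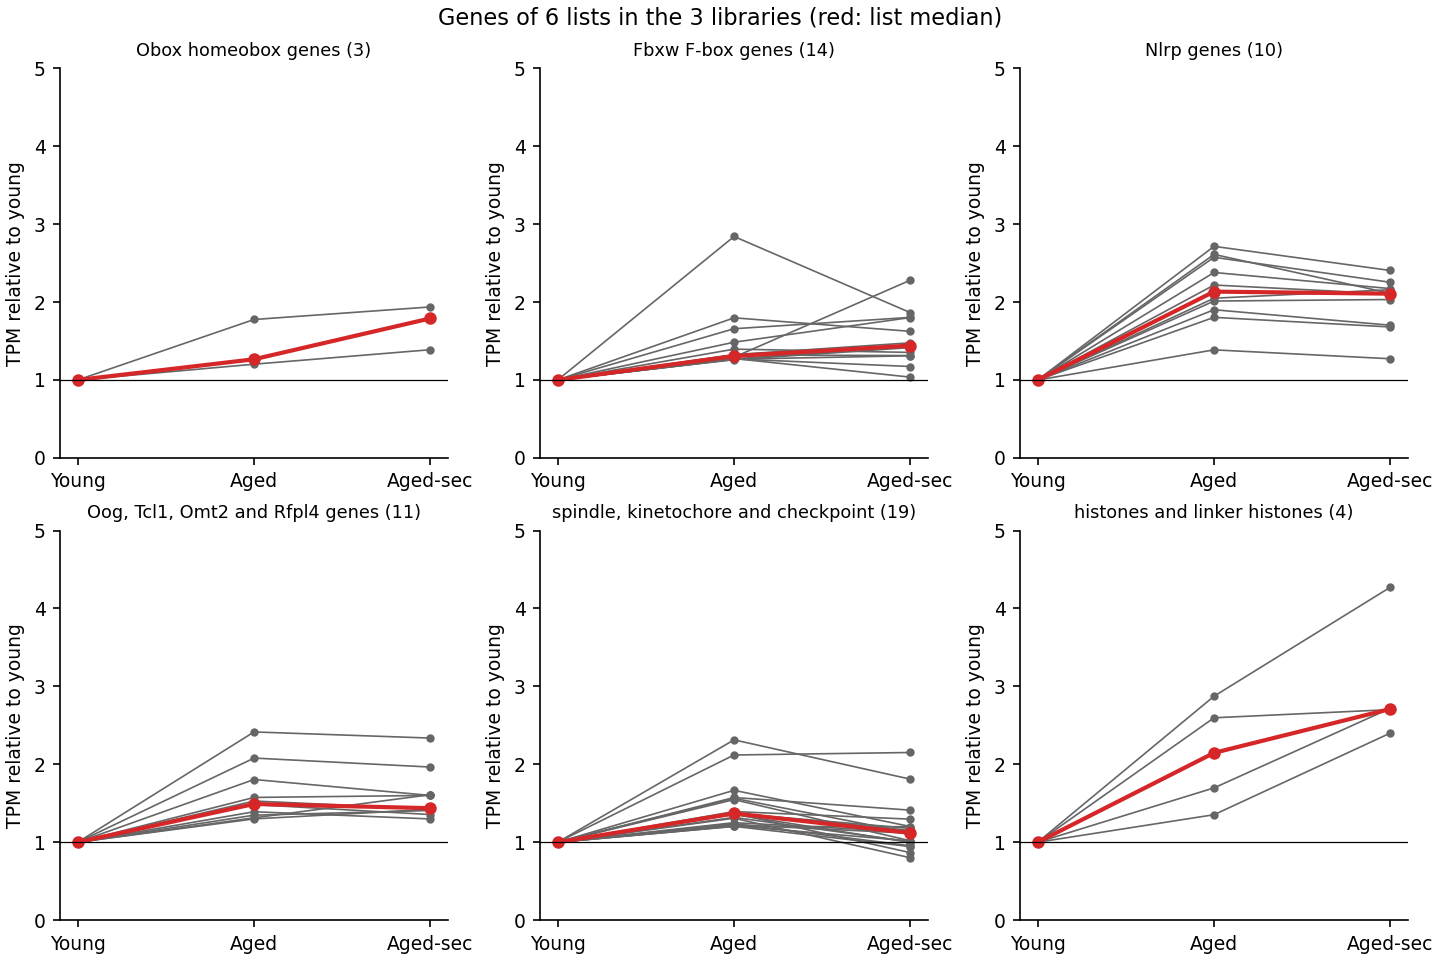
TPM relative to young (y axis, young set to 1) of the members of 6 gene lists in the young, aged and aged-sec libraries, 1 library each. Grey lines are genes and the red line is the list median, which in aged-sec stands at 1.79 for Obox, 1.44 for Fbxw, 2.11 for Nlrp, 1.44 for the Oog group, 1.12 for spindle genes and 2.71 for histones.

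Other maternal factors stood near the general level. Of 40 symbols 15 were listed and 7 had at least 10 TPM, 2 of them (Nlrp14 and Nlrp2) already counted above. Their median was 1.37, at 0.998 and 0.974 under the scalings. Bmp15 had a ratio of 1.37. Kpna7, the importin alpha of oocytes, stood at 164 TPM in young, 240 in aged and 164 with secretome. Gdf9, the partner of Bmp15, was listed through 1 of 4 annotated mRNAs below the minimum, at 4.36, 6.81 and 4.46 TPM. Zp2, a zona pellucida protein, stood at 20.5, 39.3 and 20.5 TPM. As deposited, the listed transcripts of Kpna7, Gdf9 and Zp2 were thus at the young level in aged-sec, with ratios of 1.00, 1.02 and 1.00. For Gdf9 and Zp2 this rests on part of the gene only. Aged stood above young in every listed row, so the contrast with aged was partly fixed by the table.

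The ratios of cell cycle regulators ranged from 0.368 to 2.79. Of 31 symbols for cyclin B, its kinase, Cks proteins and the anaphase-promoting complex, 19 were listed and 12 had at least 10 TPM, with 1 higher and 1 lower. The median was 1.14, below the all-symbol median, and 0.84 and 0.82 under the scalings. Cks2, a small subunit that binds Cdk1 and is needed to leave the first meiotic metaphase, stood at 7430 TPM in young, 8942 in aged and 11674 with secretome (ratio 1.57). Its relative Cks1b stood at 3915, 4767 and 4428 TPM (1.13), and Ccnb1, cyclin B1, at 1643, 2083 and 1754 TPM (1.07). Cks2 was thus highest in aged-sec, while Cks1b and Ccnb1 lay between young and aged. Wee2, the oocyte kinase that inhibits Cdk1, stood at 250, 333 and 273 TPM (1.09). Cdk1 itself stood at 3.66, 7.64 and 10.2 TPM (2.79), through its single annotated mRNA. It reached 10 TPM in aged-sec only, so a ratio above 1 was certain. Cdc27, an anaphase-promoting complex protein, was lower at 26.1, 39.4 and 9.59 TPM (0.368), through 2 of 7 annotated mRNAs.

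Of 23 securin, separase and cohesin symbols 7 had at least 10 TPM, at a median of 1.30 (0.95 and 0.93 under the scalings). Pttg1, securin, which holds separase inactive, stood at 1406 TPM in young, 1966 in aged and 1413 with secretome (ratio 1.01). Esco2, a cohesin acetyltransferase, stood at 407, 514 and 529 TPM (1.30). Nipbl, the cohesin loader, was higher at 7.84, 16.8 and 16.9 TPM (2.15). As deposited, Pttg1 was therefore at the young level in aged-sec, while Esco2 and Nipbl had an excess as large as in aged. Of 56 spindle, kinetochore and checkpoint symbols 31 were listed and 19 had at least 10 TPM, 1 higher and 5 below young. Their median was 1.12, against 1.37 in aged, and 0.82 and 0.80 under the scalings, so the direction against young depends on the scale. Aurkc, the Aurora kinase of germ cells, stood at 610, 837 and 703 TPM (1.15), and Dsn1, a kinetochore protein, at 285, 345 and 289 TPM (1.02). Kif23, a kinesin of the central spindle, stood at 278, 366 and 279 TPM (1.01). Bub3, a checkpoint protein, stood at 65.8, 86.1 and 52.7 TPM (0.80). Ttk, the checkpoint kinase Mps1, was the higher member, at 21.9, 46.3 and 47.0 TPM (2.15). Aged-sec was above aged in 1 of the 19 genes, but aged values were selected to be high, so this order is favoured by the table.

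Microtubule motors, tubulins and centrosome genes were similar. Of 147 symbols 22 had at least 10 TPM, 1 shared with the spindle list, and 7 stood below young. The median was 1.10, against 1.34 in aged, and 0.80 and 0.78 under the scalings. Tacc3, which builds the spindle with Aurora A, stood at 144 TPM in young, 201 in aged and 123 with secretome (ratio 0.854). Haus1, an augmin subunit that branches microtubules, stood at 39.0, 53.0 and 71.8 TPM (1.84). Dctn6, a dynactin subunit, was higher at 6.30, 9.77 and 15.4 TPM (2.44).

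**Figure D4:**
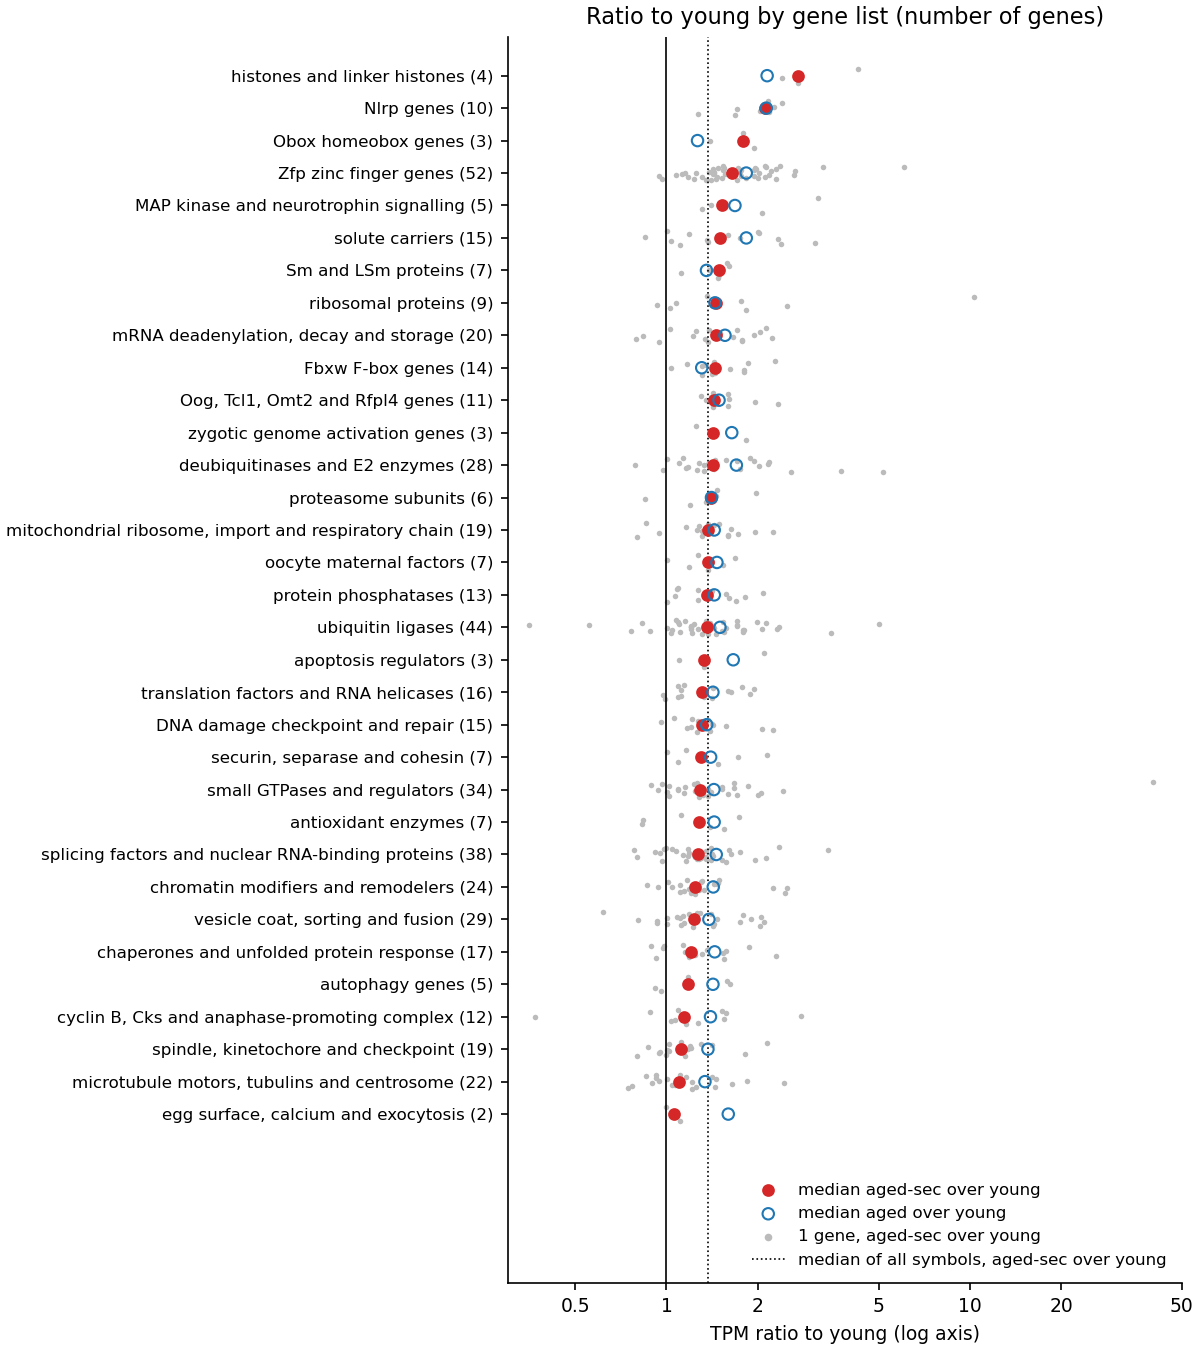
Ratio of TPM to young (x axis, log) in 33 gene lists, with the number of symbols in brackets, 1 library each. Red points are list medians in aged-sec, open blue circles those in aged, grey points single genes, the solid line equal TPM and the dotted line the all-symbol median of 1.37. The histone (2.71, with 3 of 4 members at 10 TPM in aged-sec only) and Nlrp (2.11) medians lie farthest right, and the microtubule (1.10) and egg surface (1.06) medians lie nearest to 1.

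Messenger RNA decay factors stood slightly above the general excess with all listed accessions. With curated accessions alone the list's median was 1.34, beside 1.33 over curated transcripts. The CCR4-NOT complex shortens poly(A) tails, decapping enzymes then open the mRNA, and proteins such as Cpeb1 and Eif4enif1 hold mRNAs silent. Of 58 symbols 35 were listed and 20 had at least 10 TPM, 3 higher (0 under either scaling) and 3 below young, at a median of 1.45 (1.06 and 1.03 under the scalings). Cnot7, a catalytic deadenylase, stood at 418 TPM in young, 616 in aged and 561 with secretome (ratio 1.34). Cnot6l, the other catalytic subunit, which is abundant in mouse oocytes, stood at 81.7, 125 and 145 TPM (1.78). Pabpn1l, a poly(A) binding protein of oocytes, stood at 226, 313 and 339 TPM (1.5). Both Cnot6l and Pabpn1l were highest in aged-sec. The higher members were Pan3, a deadenylase subunit, at 52.6, 88.1 and 107 TPM (2.03), Ythdf3, a reader of methylated mRNA, at 14.8, 38.6 and 31.4 TPM (2.13), and Cpeb1 at 8.6, 11.3 and 19.2 TPM (2.23). With curated transcripts alone Pan3 had a ratio of 3.45. Cnot9 stood at 97.0, 125 and 76.8 TPM (0.792), but its ratio was 1.35 with its curated transcript alone.

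MAP kinase and neurotrophin signalling had few abundant members. The pathway downstream of the kinase Mos helps to hold the egg at metaphase II. Of 50 symbols 24 were listed and 5 had at least 10 TPM, all above young, at a median of 1.52 (1.11 and 1.08 under the scalings). Spred2, an inhibitor of Ras signalling, was higher at 7.82 TPM in young, 20.9 in aged and 24.7 with secretome (ratio 3.15), through 1 of 4 mRNAs. Gab1, an adaptor of receptor kinases, was higher at 15.9, 27.9 and 32.7 TPM (2.06). Rasa1, a Ras GTPase activator, stood at 33.3, 47.1 and 50.7 TPM (1.52). The 2 inhibitors of Ras and Gab1 were thus highest in aged-sec.

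DNA damage genes stood near the general excess. Of 55 symbols 15 had at least 10 TPM, at a median of 1.31 (0.96 and 0.94 under the scalings). Of the 15, 2 were higher (13.3%, beside 15.8% of all symbols) and 1 stood below young. Chek1, the checkpoint kinase, stood at 448 TPM in young, 597 in aged and 623 with secretome (ratio 1.39). Mdm4, an inhibitor of p53, stood at 381, 718 and 598 TPM (1.57). Ercc6l, a helicase of anaphase DNA bridges, was higher at 13.0, 33.5 and 29.1 TPM (2.25), and so was Fancl, the ligase of the Fanconi pathway, at 5.62, 9.78 and 11.6 TPM (2.07).

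Histones package DNA, and few of their genes reached the minimum. Of 97 histone symbols 11 were listed and 4 had at least 10 TPM, 3 of them through aged-sec only, so that a ratio above 1 was certain for those 3. As deposited 4 of the 4 were higher, beside 15.8% of all symbols, and 1 under either scaling. The median was 2.71, against 2.15 in aged (1.98 and 1.93 under the scalings), and given the choice of members it supports no ranking. H4c4, a histone H4 gene, stood at 29.8 TPM in young, 40.3 in aged and 71.5 with secretome (ratio 2.40). H2bc18 stood at 4.13, 7.01 and 11.2 TPM (2.72), Hist1h2ao at 5.16, 13.4 and 13.9 TPM (2.70), and Hist1h2ap at 2.38, 6.84 and 10.2 TPM (4.27). Aged-sec was the highest library in all 4. H4c4 was the member with at least 10 TPM in young. Most histone mRNAs lack a poly(A) tail and their genes are related copies, so these levels are uncertain.

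Chromatin modifiers stood below the general excess. Of 147 symbols 24 had at least 10 TPM, at a median of 1.25 (0.91 and 0.89 under the scalings). Of the 24, 3 were higher (12.5%, beside 15.8% of all symbols) and 2 stood below young. Rbbp7, a histone-binding subunit of deacetylase and Polycomb complexes, stood at 2001 TPM in young, 2820 in aged and 2022 with secretome (ratio 1.01). Brdt, a bromodomain protein of germ cells, stood at 792, 1103 and 1013 TPM (1.28). The higher members were scarce: Brd1, a bromodomain protein, stood at 12.1, 19.7 and 29.9 TPM (2.46), Chd9, a remodeler, at 4.03, 8.1 and 10.04 TPM (2.49), and Crebbp, an acetyltransferase, at 12.4, 36.5 and 27.7 TPM (2.24). With curated transcripts alone the ratio of Crebbp was 1.48.

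Zfp zinc finger genes encode mostly DNA-binding proteins, many of them repressors of transposons. Of 397 symbols 209 were listed and 52 had at least 10 TPM, of which 14 were higher, beside 15.8% of all symbols, and 2 stood below young. Under either scaling 2 were higher. Among the 14, Zfp978, Zfp993, Zfp438 and Zfp605 had under 10 TPM in young, so a ratio above 1 was certain for them. The median was 1.64, against 1.83 in aged, and 1.2 and 1.17 under the scalings. Zfp706, the most abundant, stood at 559 TPM in young, 787 in aged and 700 with secretome (ratio 1.25). Zfp979 stood at 11.5, 73.7 and 69.3 TPM (6.05), Zfp873 at 28.5, 69.5 and 75.6 TPM (2.66), and Zfp932 at 34.2, 85.1 and 75.6 TPM (2.21). Reads may be shared among related Zfp genes, and with curated transcripts alone Zfp979 had a ratio of 11.5 and Zfp951 of 4.92, against 2.30 with all.

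Ubiquitin ligases spanned the widest range among the large lists other than small GTPases. Of 283 symbols 44 had at least 10 TPM, at a median of 1.36 (0.99 and 0.97 under the scalings). Of the 44, 6 were higher (13.6%, beside 15.8% of all symbols), 1 lower and 5 below young in all. Under either scaling 2 were higher. The SCF core was abundant: Skp1a stood at 864 TPM in young, 1197 in aged and 1200 with secretome (ratio 1.39), Cul1, the scaffold, at 526, 794 and 690 TPM (1.31), and Rbx1, the RING subunit, at 346, 488 and 494 TPM (1.43). Fbxo11, an F-box adaptor, was higher at 10.1, 22.5 and 35.1 TPM (3.49). Klhl28, an adaptor of cullin 3, was higher at 17.4, 33.5 and 40.1 TPM (2.31). Rnf214, a RING protein, was lower at 10.5, 14.6 and 3.68 TPM (0.351), through 4 of 17 mRNAs. Deubiquitinases and E2 enzymes had 28 of 124 symbols at 10 TPM or more, at a median of 1.42 (1.04 and 1.01 under the scalings). Of the 28, 6 were higher (21.4%), beside 15.8% of all symbols, and 2 stood below young. Under either scaling 2 were higher. Among the 6, Atxn3 and Otud4 had under 10 TPM in young, so a ratio above 1 was certain for them. Usp15, which removes ubiquitin, stood at 291, 496 and 399 TPM (1.37), and Ube2w, an E2 enzyme, at 49.3, 97.9 and 99.8 TPM (2.03). Brcc3, a deubiquitinase of DNA repair, stood at 12.9, 112 and 66.7 TPM (5.18), but at a ratio of 1.21 with curated transcripts alone.

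Splicing factors had 38 of 126 symbols at 10 TPM or more, 3 higher and 7 below young, at a median of 1.27 (0.93 and 0.91 under the scalings). Clk1, a kinase of splicing factors, stood at 352 TPM in young, 504 in aged and 553 with secretome (ratio 1.57). Srsf3 was higher at 7.98, 29.4 and 27.3 TPM (3.42), and Luc7l2, a partner of the U1 particle, at 26.5, 46.1 and 56.5 TPM (2.13). Snrnp70, the U1-70K protein, stood at 67.5, 87.9 and 52.8 TPM (0.782). Translation factors and RNA helicases had 16 of 127 symbols, none higher and 2 below young, at a median of 1.31 (0.96 and 0.94 under the scalings). Eif3e stood at 217, 283 and 346 TPM (1.59), and Eif5a at 218, 346 and 250 TPM (1.15). Of 84 ribosomal protein symbols 15 were listed and 9 had at least 10 TPM, at a median of 1.46 (1.07 and 1.04 under the scalings). Of the 9, 2 were higher (22.2%, beside 15.8% of all symbols) and 1 stood below young. Rpl7a was higher at 48.4, 128 and 121 TPM (2.50) and Rps28 at 5.86, 47.6 and 60.7 TPM (10.4), both with every annotated mRNA listed, although processed copies of ribosomal genes can share their reads.

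Among mitochondrial genes of translation, import and respiration, 19 of 213 symbols had at least 10 TPM, 1 higher and 3 below young. The median was 1.37, at 1.00 with a median ratio of 1 and 0.98 at equal totals. Cox6b2, a germ cell subunit of cytochrome oxidase, stood at 709 TPM in young, 877 in aged and 1130 with secretome (ratio 1.59). Timm23, the channel of the inner membrane import complex, stood at 681, 891 and 583 TPM (0.856), the largest shortfall in TPM of any symbol, at 97.9 below young. Cox6b2 and Timm23, at like levels in young, thus stood on opposite sides of it. Mrpl14 was higher at 7.33, 12.6 and 16.4 TPM (2.24). Antioxidant enzymes and thioredoxin-domain proteins had 7 of 77 symbols, 0 higher and 2 below young, at a median of 1.28 (0.93 and 0.91 under the scalings). Glrx, glutaredoxin, stood at 281, 408 and 393 TPM (1.40), and Sod2, the mitochondrial superoxide dismutase, at 12.7, 17.5 and 10.6 TPM (0.832).

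Transport and trafficking genes varied. Solute carriers had 15 of 375 symbols, 5 higher, beside 15.8% of all symbols, and 1 below young, at a median of 1.5 (1.10 and 1.07 under the scalings). The number higher was 1 under either scaling, 1 of 8 with curated accessions alone and 3 with 0.5 TPM added. Of the higher members only Slc7a11 had at least 10 TPM in young. For Slc1a6, Slc7a14, Slc35b4 and Slc20a1 a ratio above 1 was certain. Slc39a10, a zinc importer, stood at 117 TPM in young, 234 in aged and 205 with secretome (ratio 1.75). Slc7a11, the cystine importer, was higher at 14.7, 38.1 and 29.6 TPM (2.01), while Slc3a2, the heavy chain that pairs with it, stood at 250, 324 and 213 TPM (0.85). Vesicle genes had 29 of 175 symbols, at a median of 1.23 (0.90 and 0.88 under the scalings). Of the 29, 3 were higher (10.3%, beside 15.8% of all symbols) and 4 stood below young. Snx6, a sorting nexin, was higher at 112, 220 and 231 TPM (2.05), and Vti1b, a SNARE, stood at 14.9, 18.3 and 9.17 TPM (0.615). Small GTPases and their regulators had 34 of 317 symbols, 3 higher and 3 below young, at a median of 1.29 (0.94 and 0.92 under the scalings). Cdc42, which polarizes the egg cortex, was higher at 132, 255 and 269 TPM (2.04). Rab33b, a Golgi GTPase, was higher at 63.8, 135 and 154 TPM (2.41).

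The remaining lists were small. Protein phosphatases had 13 of 151 symbols, 1 higher, at a median of 1.36 (0.995 and 0.97 under the scalings), and the higher 1 was Ppp2ca, the catalytic subunit of PP2A, at 5.68, 11.4 and 11.8 TPM (2.08). Chaperones had 17 of 99, 1 higher and 4 below young, at a median of 1.2 (0.88 and 0.86), with Dnajb14 higher at 53.8, 110 and 124 TPM (2.30). Proteasome subunits had 6 of 51, none higher, at a median of 1.40 (1.03 and 1.00). Autophagy genes had 5 of 37, none higher, at a median of 1.18 (0.86 and 0.84, and 0.93 with curated transcripts alone), with Atg5 at 430, 757 and 697 TPM (1.62, and 2.48 with curated transcripts alone). Apoptosis regulators had 3 of 29, with Cflar, an inhibitor of caspase 8, higher at 37.9, 73.8 and 79.3 TPM (2.09), at a median of 1.33 (0.97 and 0.95). Genome activation genes had 3 of 34, none higher, at a median of 1.42 (1.04 and 1.01), with Sp110 at 219, 360 and 312 TPM. Egg surface and exocytosis genes had 2 of 25, at a median of 1.06 (0.77 and 0.75), with Snap23, a SNARE, at 40.2, 51.6 and 44.7 TPM beside Zp2. Over the 33 lists, 33 medians were above 1 as deposited, 15 at a median ratio of 1 and 14 at equal totals.

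By ratio, the symbols farthest above young among those with at least 1 TPM in both libraries were Dstyk, Rps28, Pxt1, Stau2, Actb, Zfp979, Tmtc1 and Actr3. Of these only Actb and Zfp979 had at least 10 TPM in young, so a ratio above 1 was certain for the others. Dstyk, a dual-specificity kinase, stood at 2.27 TPM in young, 42.0 in aged and 24.1 with secretome (ratio 10.6), through 1 of 3 mRNAs. Pxt1, a peroxisomal protein known from testis, stood at 3.66, 29.0 and 27.6 TPM (7.53), from a later annotated copy of its accession. Actb, beta-actin, stood at 29.4, 125 and 180 TPM (6.14) through 1 of 2 mRNAs, and Actr3, the Arp3 subunit that seeds actin branches, at 8.02, 40.7 and 41.7 TPM (5.20) through 1 of 3. Stau2, an RNA-binding protein, stood at 2.02, 12.5 and 12.8 TPM (6.33), through 2 of 14 mRNAs. Tmtc1 stood at 3.44, 20.1 and 18.2 TPM (5.28, and 2.87 with curated transcripts alone). Most of these symbols are partly listed, so whether the whole gene stood above young cannot be told from these rows.

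Among the genes with every annotated mRNA listed, a set looked at after the values were seen, Exosc2, a subunit of the RNA exosome, stood at 72.5 TPM in young, 167 in aged and 227 with secretome (ratio 3.13). H2-T23, the mouse Qa-1 antigen, stood at 254, 520 and 602 TPM (2.37), and Nmrk1, a kinase that makes NAD precursors, at 84.5, 185 and 200.2 TPM (2.37). Rmi2, of the complex that resolves crossed DNA strands, stood at 4.20, 19.2 and 15.9 TPM (3.80). Exosc2, H2-T23 and Nmrk1 were each highest in aged-sec. At the other end, Dcps, the scavenger enzyme of mRNA caps, stood at 38.9, 55.3 and 29.5 TPM, and Hyls1, a centriole protein, at 55.8, 68.4 and 43.5 TPM. Both were below young in aged-sec as deposited, while aged above young was a trait of every listed row.

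The 6 lower symbols were all scarce. Tdrp stood at 22.8 TPM in young, 30.6 in aged and 1.30 with secretome (ratio 0.057), through 1 of 8 mRNAs. Cers2, a ceramide synthase, stood at 11.6, 14.04 and 4.6 TPM (0.398), and Ccdc14 at 28.3, 36.9 and 13.4 TPM (0.475). Api5, an inhibitor of apoptosis, stood at 20.5, 29.7 and 9.81 TPM (0.479). With Cdc27 and Rnf214 these complete the 6, none with more than 4 mRNAs listed. By difference in TPM the lowest after Timm23 and Slc3a2 were Zfyve21 (148, 181 and 117 TPM) and Accsl (1683, 2174 and 1654 TPM). Ncapg, a condensin subunit, stood at 170, 250 and 151 TPM.

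Single transcripts gave larger ratios than genes. Of 300 symbols with a higher transcript, 246 were also higher as a sum and 54 were not. Elmod2 shows this: its variant XM_006530980 stood at 3.95 TPM in young, 89.2 in aged and 56.9 with secretome (ratio 14.4), its variant NM_178736 at 76.4, 102 and 90.5 TPM (1.18), and the symbol's sum at a ratio of 1.82. Among Nfrkb variants, XM_006510219 stood at 11.3, 16.6 and 0.59 TPM while XM_006510218 stood at 23.7, 66.3 and 58.4 TPM. The same gene thus gave a lower and a higher transcript. Transcripts under 1 TPM in young reached 106 TPM in aged-sec for a later copy of Cd55 (0.32 TPM in young, 109 in aged) and 66.7 TPM for a later copy of Farsb (0.55 and 104 TPM). Those of Tiam1 (0.64, 10.6 and 27.1 TPM), Fnip1 (0.12, 7.62 and 15.5 TPM), Suco (0.65, 5.41 and 16.7 TPM), Ss18 (0.67, 12.1 and 15.5 TPM) and Zc3h14 (0.22, 10.9 and 14.3 TPM) were also far above young. In the other direction a Clk2 variant stood at 11.3, 13.97 and 0.07 TPM. How reads were divided among variants is not known here, and such ratios are uncertain for the gene as a whole.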

How the data were processed

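Per the file headers, the authors deposited 1 table with the TPM of RefSeq transcripts in the 3 libraries and 2 ratio columns, which matched the divided TPM to 6.6e-07 or better in relative terms. The aligner, the quantification and the build are not stated in those sources. Of the rows, 8920 (97.7%) had an accession in RefSeq GRCm38.p6, used for counts of annotated mRNAs and, where shown, start regions. mRNA lengths came from GENCODE vM21. The 6 rows whose symbol had become a date were named through their accession.

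Ratios of aged-sec over young were computed from TPM with nothing added, over transcripts and over symbols with at least 10 TPM in either library, using Python 3.11.15, pandas 2.3.3, numpy 2.4.6 and scipy 1.17.1. A ratio of at least 2 was called higher and at most 0.5 lower. Rows repeating accession and values were counted once (110 rows). The 33 gene lists, the marker lists and the members were chosen with earlier results of these data known, and a name pattern in the chromatin list was narrowed after the values were seen. The named genes were the 8 highest and 8 lowest by ratio (at least 1 TPM in both libraries) and by difference, the 3 most abundant and up to 3 called members per list, the 8 transcripts under 1 TPM in 1 library with the highest TPM in the other, and Bmp15, Gdf9, Zp2, Cks2, Cks1b, Cnot7, Cnot6l, Rasa1 and Spred2. Some further members are named as chosen after their values were seen. A gene that the rule names is not reported here. Names of the form Gm with digits, Rik or -ps were left out of them. The scripts were tested on simulated data. Alternatives were a pseudocount, other minimums, 2 scalings, curated accessions, another ratio, all rows kept, at least 10 TPM in young and fully listed genes. Depth is unknown from TPM, so no interval is given.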

Additional observations from a re-analysis of the deposited data

How the results depend on the processing

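As deposited, 367 transcripts were higher and 10 lower, and 276 symbols were higher and 6 lower. Without a minimum the counts were 2519 and 490 transcripts and 1445 and 281 symbols. At 1 TPM they were 1373 and 127 transcripts and 809 and 68 symbols, and at 50 TPM 77 and 0 transcripts and 80 and 0 symbols. At equal listed totals they were 99 and 24 transcripts (median ratio 0.98) and 62 and 13 symbols (median 0.98). At a median ratio of 1, by construction 1.0 for both, they were 106 and 21 transcripts and 67 and 11 symbols. With curated accessions alone 199 transcripts were higher and 6 lower, and 165 symbols were higher. At a ratio of 1.5, 768 transcripts were higher and 18 lower, and 630 symbols were higher. Of the alternatives chosen after seeing the data, at least 10 TPM in young gave 153 higher transcripts and 148 higher symbols, and fully listed genes gave 55 higher and 0 lower. Of the 33 lists with a median above young, 14 remained above at equal totals, also chosen after seeing the data, and 15 at a median ratio of 1. Adding 0.5 or 1 TPM, asking for 1 TPM in both libraries and keeping every row kept these counts within 1.5 times. Adding 0.5 TPM took the summed ratio of Tiam1 from 40.2 to 23.6. No paired analysis was possible because each group has 1 library, and for the same reason no library could be left out.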
